A study of Rattus norvegicus with 8 samples.

Results

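The transcription factors described here steer the oligodendrocyte lineage: the basic helix-loop-helix factors Olig1 and Olig2, the homeodomain factors Nkx2-2 and Nkx6-2, the myelin regulatory factor Myrf, the nuclear factor I proteins Nfia and Nfib, and the zinc finger factors Zeb2 and Yy1. They were read from every Affymetrix probe set whose only annotated gene symbol was one of these names, which gave 21 probe sets for 9 genes, out of 31042 probe sets and 14217 genes tested. RNA came from cells of postnatal day 7 rat whole brain that were sorted by flow cytometry for the surface antigen A2B5, a ganglioside epitope of glial progenitors, or for galactocerebroside (GalC), a glycolipid that oligodendrocytes carry on their membrane. The labels call the A2B5+ cells oligodendrocyte progenitors and the GalC+ cells oligodendrocytes; no strain, sex or further treatment is given. Each population had 4 replicates, each from the pooled litter of 10 pups, with 1 array per replicate. Each deposited value is a ratio to the middle of the 8 arrays for that probe set, so 1 marks the median, folds between arrays are kept, and brightness is not. For that reason no factor can be ranked above another by abundance, and a probe set near background cannot be recognised.

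In the developing brain, Olig2 and Nkx2-2 act early and set up and advance the lineage, and Olig1 acts in its maturation. Myrf is made as a membrane-bound precursor that cleaves itself, and its released part enters the nucleus and switches on myelin genes in differentiating cells; Nkx6-2 is a homeodomain protein of differentiating and myelinating oligodendrocytes. Nfia and Nfib start gliogenesis in neural progenitors and are also made by young neurons and astrocytes. Zeb2 counters Smad signalling downstream of bone morphogenetic proteins, and Yy1 helps progenitors differentiate by recruiting histone deacetylases.

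Myrf and Nkx6-2 were much higher in GalC+ cells, by 4.80-fold and 8.15-fold. Nfia and Nfib were lower, by 1.81-fold to 2.51-fold in 2 of the 3 probe sets of each, and Olig1 was 1.27-fold lower. Zeb2 was 1.35-fold to 1.39-fold higher in 2 of its 5 probe sets. No probe set of Olig2, Nkx2-2 or Yy1 passed the test. In all, 9 of the 21 probe sets passed (42.9%; limma, adjusted p under 0.05 over all probe sets), 4 of them higher and 5 lower in GalC+, where 26.8% of all probe sets on the array passed, 13.5% higher and 13.2% lower. In the same 9 probe sets the 2 populations had no overlapping values, which held for 29% of all probe sets. A further 3 probe sets had an unadjusted p under 0.05 and did not pass. The median size of the log2 fold change was 0.32 over the 21 probe sets and 0.17 over all probe sets. With sorted populations, a higher share of cells that make a transcript and more transcript per cell cannot be told apart.

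**Figure D1:**
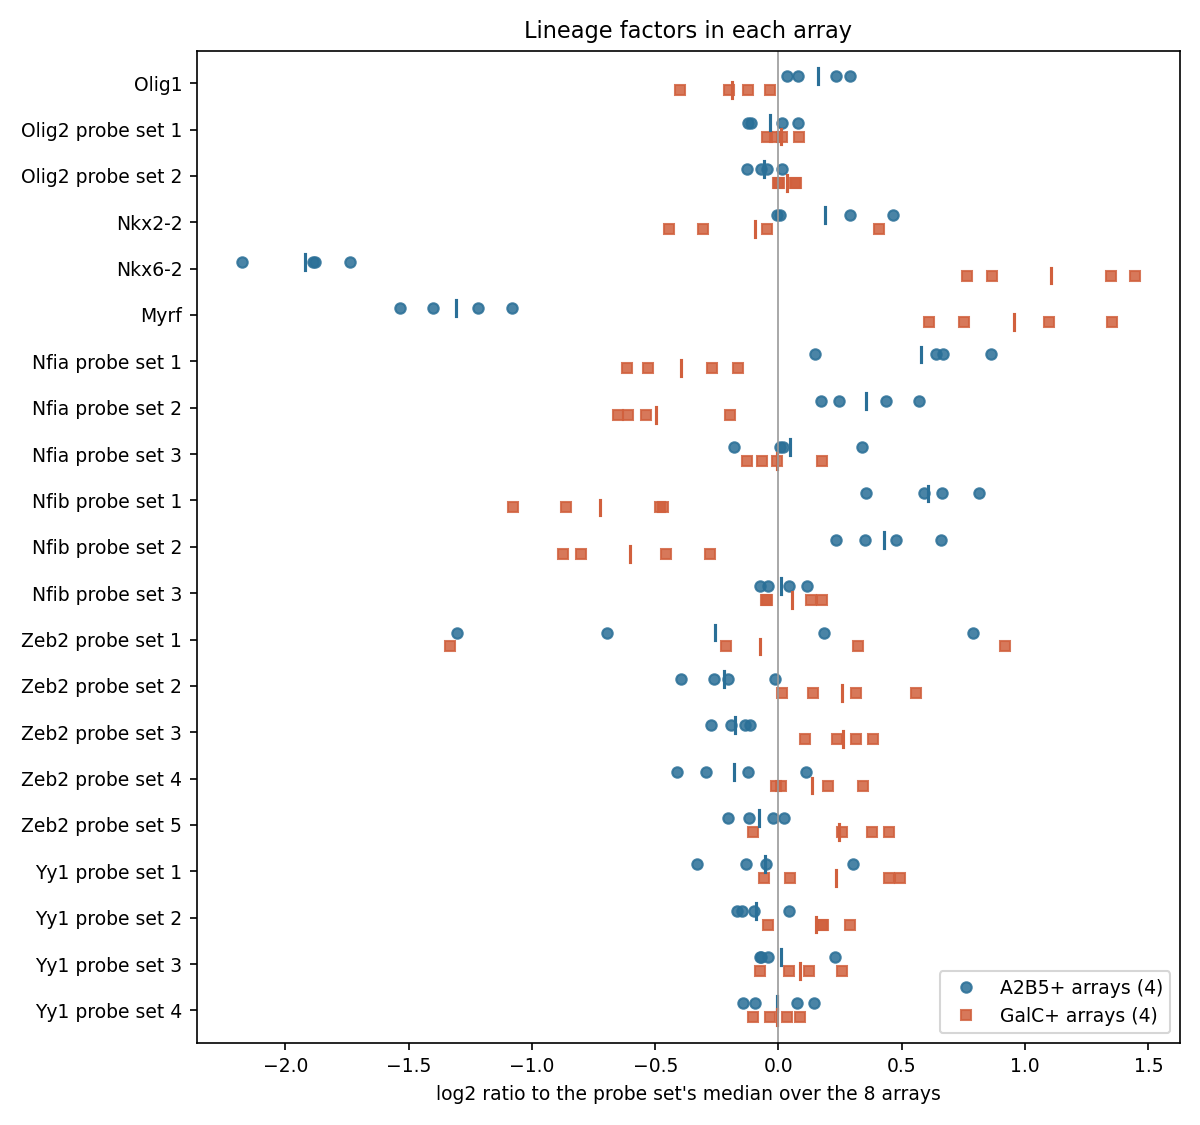
Log2 ratio of each array to the probe set's median over the 8 arrays (x axis) for the 21 probe sets (rows); circles are the 4 A2B5+ arrays, squares the 4 GalC+ arrays, and the short vertical bars the population means. The populations stand widely apart for Nkx6-2 and Myrf, stand apart the other way for probe sets 1 and 2 of Nfia and of Nfib, and overlap for Olig2, Nkx2-2 and Yy1.

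**Figure D2:**
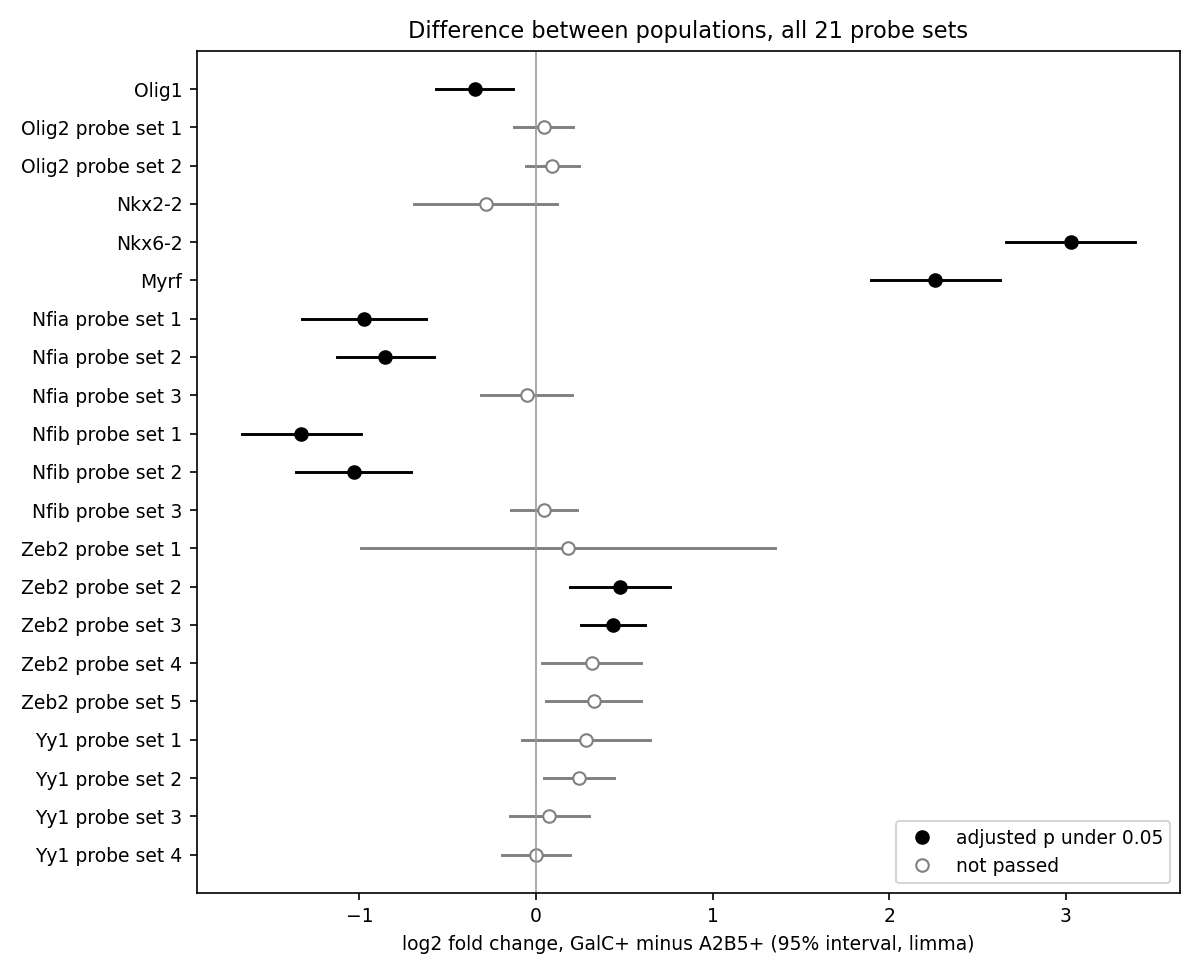
Log2 fold change of GalC+ over A2B5+ (x axis) with its 95% interval from limma for the 21 probe sets (rows, 4 arrays per population); filled points passed an adjusted p of 0.05. The filled points are Olig1, Nkx6-2, Myrf, probe sets 1 and 2 of Nfia and Nfib, and probe sets 2 and 3 of Zeb2.

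Sequence upstream of the start site was available for 7 of the 9 genes in the RefSeq promoter table (GRCr8); Olig1 and Myrf were not among them. The 250 bases before the start site are shown for the factor with the largest rise (Nkx6-2), for the Nfi pair that fell (Nfia and Nfib), and, for contrast, for Olig2, where no difference was detectable. They lie at chr1:203813123-203813372, minus strand, for Nkx6-2, at chr5:117557030-117557279, plus strand, for Nfia, at chr5:102019946-102020195, minus strand, for Nfib, and at chr11:43961335-43961584, plus strand, for Olig2. Each is written 5′ to 3′ on the strand of its gene. Capitals mark the promoter box CCAAT and the motifs TTGGC (the core bound by Nfi factors), TAATTA (a homeodomain core) and CACCTG (the box bound by Zeb factors), on either strand.
Nkx6-2: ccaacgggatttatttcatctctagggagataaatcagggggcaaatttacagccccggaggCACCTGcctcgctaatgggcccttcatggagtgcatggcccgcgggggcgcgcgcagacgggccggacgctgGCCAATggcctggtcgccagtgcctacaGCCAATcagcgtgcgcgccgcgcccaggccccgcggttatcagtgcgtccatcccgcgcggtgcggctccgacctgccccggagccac
Nfia: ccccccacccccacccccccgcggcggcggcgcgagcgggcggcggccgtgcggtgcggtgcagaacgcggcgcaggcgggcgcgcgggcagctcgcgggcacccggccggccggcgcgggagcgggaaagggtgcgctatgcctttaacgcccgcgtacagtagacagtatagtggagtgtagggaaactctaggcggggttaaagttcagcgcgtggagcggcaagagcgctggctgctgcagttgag
Nfib: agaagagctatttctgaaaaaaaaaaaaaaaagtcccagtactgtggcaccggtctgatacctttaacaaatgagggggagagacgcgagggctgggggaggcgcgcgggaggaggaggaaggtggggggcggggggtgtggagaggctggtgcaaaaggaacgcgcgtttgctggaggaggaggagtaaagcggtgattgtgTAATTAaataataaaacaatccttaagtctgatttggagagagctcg
Olig2: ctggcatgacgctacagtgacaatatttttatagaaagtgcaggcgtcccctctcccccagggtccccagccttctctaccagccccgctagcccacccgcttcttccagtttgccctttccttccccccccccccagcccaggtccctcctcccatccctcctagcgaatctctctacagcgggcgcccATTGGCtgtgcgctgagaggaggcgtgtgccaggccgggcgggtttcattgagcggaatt

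The Nkx6-2 promoter held 2 copies of GCCAAT, in which CCAAT overlaps the reverse complement of TTGGC; the CCAAT parts began at -115 and -87 from the start site. It was also the only one of the 7 promoters with CACCTG, at -188, a motif present in 15.9% of the 33469 promoters of the table. In the Olig2 promoter the same overlapping pair stood on the other strand, with CCAAT at -60. CCAAT was found in 34% of all promoters and TTGGC in 40.3%, on either strand. Nfib alone of the 7 held TAATTA, at -47 (4.86% of all promoters), and the Nfia stretch shown has none of the 4 marked motifs. The wider E-box CANNTG, which includes CACCTG and CAGCTG, stood in the promoters of Nkx6-2, Zeb2, Nfib and Nfia (65.5% of all). CAGCTG (12% of all), CACTTNA (9.89%) and AAGATGGC (1.63%), letters of the kinds reported for Olig2, Nkx2 factors and Yy1, occurred in none of the 7, and ACAAAG, a Sox core (16.3%), only in Zeb2. GC content was 72.8% for Nfia, 67.2% for Nkx6-2, 62.0% for Olig2 and 51.2% for Nfib, beside a median of 51.2% over all promoters. These matches describe letters in a short window and were not tested against the expression values.

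Nkx6-2, the homeodomain factor of myelinating oligodendrocytes, had 1 probe set (1378803_at). Its ratio was 0.270, 0.221, 0.272 and 0.300 in A2B5+ replicates 1 to 4 and 1.70, 2.73, 2.55 and 1.82 in GalC+ replicates 1 to 4. The lowest GalC+ array lay far above the highest A2B5+ array. The mean was 0.266 ± 0.0328 (SD, n = 4) against 2.20 ± 0.513 (SD, n = 4), a log2 fold change of 3.03 ± 0.16 SE (limma, adjusted p = 3.74e-06). By that value it ranked 74 from the top of 31042 probe sets. Leaving out any single array gave 2.91 to 3.14.

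Myrf, the activator of myelin genes, was also read from 1 probe set (1373321_at). In A2B5+ cells its ratio was 0.430, 0.345, 0.379 and 0.473, and in GalC+ cells 1.69, 2.56, 1.53 and 2.14. Every GalC+ array exceeded every A2B5+ array. The means were 0.407 ± 0.0563 (SD, n = 4) and 1.98 ± 0.465 (SD, n = 4), and the log2 fold change was 2.26 ± 0.16 SE (limma, adjusted p = 1.85e-05), rank 164 from the top. GalC+ replicate 2 was the highest array for both Nkx6-2 and Myrf, whereas GalC+ replicate 3 was second for Nkx6-2 and lowest of its population for Myrf.

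By root mean square distance of the 8 centred log2 values, the genes nearest to Nkx6-2 were Nkain2 (0.14), Kndc1 (0.15) and Chst4 (0.16), and those nearest to Myrf were Map7 (0.08), the tubulin gene Tubb4a (0.11) and Klhl35 (0.13). For Nfib, the other member with a difference of at least 1 on the log2 scale, they were LOC100910558 (0.08), the spindle gene Aspm (0.09) and the nuclear lamin gene Lmnb1 (0.09). Nfib was read here from its probe set 1 alone (-1.33), while the mean of its 3 probe sets changed by -0.77. These distances are descriptions over 8 arrays, and most of each pattern is the step between the populations.

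Nkx2-2, which acts with Olig2 in the lineage and shares the homeodomain class with Nkx6-2, did not pass the test. Its single probe set (1385387_at) read 1.00, 1.22, 0.997 and 1.38 in A2B5+ and 0.809, 1.33, 0.736 and 0.968 in GalC+. GalC+ replicates 1, 3 and 4 lay below every A2B5+ array, and GalC+ replicate 2 lay among the A2B5+ values. The log2 fold change was -0.29 ± 0.18 SE (limma, adjusted p = 0.283, 95% interval -0.69 to 0.12), and with 1 array left out it ran from -0.45 without GalC+ replicate 2 (adjusted p = 0.0524) to -0.17 without GalC+ replicate 3 (0.532). Nkx6-2 and Nkx2-2 changed unequally. The log2 difference Nkx6-2 minus Nkx2-2 moved by 3.31 between A2B5+ and GalC+ cells (exact permutation test over 70 splits, two-sided, p = 0.0286, adjusted p = 0.0429 over 3 pairs of related factors). Without GalC+ replicate 1 or GalC+ replicate 4 the adjusted exact p was 0.0857, with the differences at 3.36 and 3.41. The populations stayed apart in both cases. With 4 against 3 arrays the exact p before adjustment cannot go below 0.0286, so the adjusted p also depends on the other pairs.

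Olig1 and Olig2 are close relatives in the basic helix-loop-helix class. Olig1 (probe set 1387200_at) read 1.06, 1.22, 1.02 and 1.18 in A2B5+ cells and 0.758, 0.977, 0.918 and 0.871 in GalC+ cells. The populations did not overlap, though A2B5+ replicate 3 and GalC+ replicate 2 came close. Its log2 fold change was -0.35 ± 0.10 SE (limma, adjusted p = 0.0260), a fall from 1.12 ± 0.0957 to 0.881 ± 0.0928 (SD, n = 4 each). The call was lost without A2B5+ replicate 2 (adjusted p = 0.0728), A2B5+ replicate 4 (0.0737) or GalC+ replicate 1 (0.0574).

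Olig2, the factor that specifies the lineage, was read from probe sets 1379593_at and 1398212_at. The first ranged from 0.919 to 1.06 in A2B5+ and from 0.968 to 1.06 in GalC+, and the second from 0.916 to 1.01 and from 0.999 to 1.05. All of these arrays lay within a narrow band and the populations overlapped in both probe sets. The log2 fold changes were 0.04 ± 0.07 SE (limma, adjusted p = 0.704, 95% interval -0.12 to 0.21) and 0.09 ± 0.07 SE (adjusted p = 0.342, -0.06 to 0.24). Olig1 minus Olig2, the latter as the mean of both probe sets, was 0.21 ± 0.19 in A2B5+ and -0.21 ± 0.14 in GalC+ (log2, SD, n = 4; exact permutation test, p = 0.0286, adjusted p = 0.0429). This adjusted p also rose to 0.0857 without GalC+ replicate 1 or GalC+ replicate 4, with differences of -0.36 and -0.39.

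**Figure D3:**
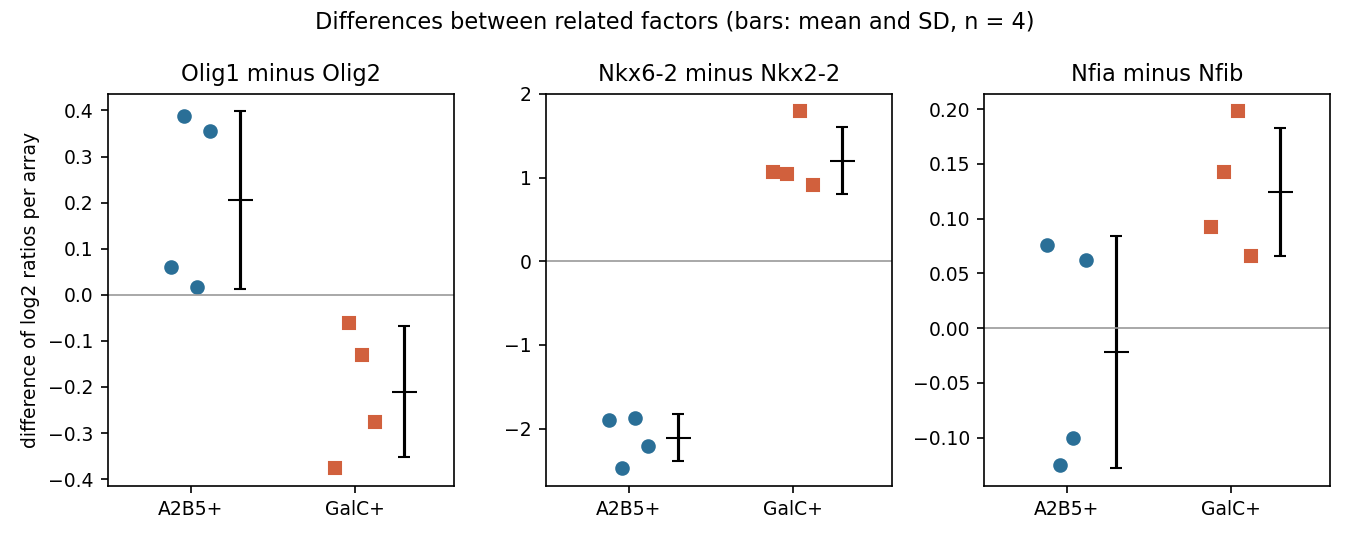
Difference of log2 ratios within each array (y axis) between Olig1 and Olig2, Nkx6-2 and Nkx2-2, and Nfia and Nfib, each gene as the mean of its probe sets, in A2B5+ (circles) and GalC+ (squares) arrays; bars give the mean and SD of 4 arrays. The populations do not overlap in the first and middle panels and overlap in the last.

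Nfia and Nfib, which switch on glial genes, each fell in GalC+ cells in 2 of 3 probe sets. Nfia probe set 1 (1369678_a_at) read 1.56, 1.59, 1.11 and 1.82 in A2B5+ and 0.83, 0.653, 0.693 and 0.893 in GalC+. Every GalC+ array was below every A2B5+ array, and the log2 fold change was -0.97 ± 0.16 SE (limma, adjusted p = 0.00154). Probe set 2 (1369679_a_at) read 1.35, 1.48, 1.18 and 1.13 against 0.873, 0.637, 0.690 and 0.655, again without overlap, with -0.85 ± 0.12 SE (adjusted p = 8.61e-04). Probe set 3 (1370724_a_at) ranged from 0.882 to 1.27 in A2B5+ and from 0.916 to 1.13 in GalC+, overlapped, and gave -0.05 ± 0.12 SE (adjusted p = 0.772, 95% interval -0.31 to 0.21).

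Nfib probe set 1 (1371202_a_at) read 1.59, 1.76, 1.28 and 1.51 in A2B5+ and 0.716, 0.474, 0.550 and 0.722 in GalC+. It had the largest fall of the 21 probe sets, -1.33 ± 0.15 SE (limma, adjusted p = 2.53e-04), and ranked 261 from the bottom of the array. Probe set 2 (1388167_at) read 1.39, 1.58, 1.17 and 1.27 against 0.826, 0.574, 0.545 and 0.728, with -1.03 ± 0.15 SE (adjusted p = 7.51e-04). Neither overlapped between the populations. Probe set 3 (1388250_at) ranged from 0.949 to 1.08 in A2B5+ and from 0.966 to 1.13 in GalC+, and gave 0.04 ± 0.08 SE (adjusted p = 0.730, 95% interval -0.14 to 0.23).

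The gap between the probe sets of Nfia and of Nfib was tested in its own right. Among 23 pairs of probe sets of the same factor, 6 had the smallest exact permutation p that 4 against 4 arrays can give (0.0286), and none passed after adjustment (0.110 at the lowest), a level that so few splits can hardly reach over 23 pairs. Limma was also fitted over all 9597 pairs of probe sets of the same gene on the array, a fit added after the data were seen. Of all pairs 14.1% passed, and at a share near that 4 of the 23 pairs of the factors passed. These were probe set 3 of Nfia against probe set 1 (-0.92 ± 0.17 SE for set 1 minus set 3, adjusted p = 0.00664) and against probe set 2 (-0.80 ± 0.18, 0.0139), and probe set 3 of Nfib against probe set 1 (-1.37 ± 0.19, 0.00118) and probe set 2 (-1.08 ± 0.18, 0.00306). With the probe sets of each gene averaged, 5 of the 9 factors passed, against 35.2% of all genes. On that scale Nfia changed by -0.63 ± 0.09 SE (adjusted p over genes 7.41e-04) and Nfib by -0.77 ± 0.10 SE (3.57e-04). Nfia minus Nfib did not differ beyond the spread of arrays (0.15 on the log2 scale, exact permutation test, p = 0.0571, adjusted p = 0.0571); without A2B5+ replicate 1 it was 0.18, with an adjusted p of 0.0286.

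Neuron markers were lower in GalC+ cells beside the Nfi genes. Of 19 measured, each read from its probe set with the largest variance, 15 fell and 0 rose, where 17.5% of all genes fell. Eomes led the falls (-2.81, and -2.38 averaged over its 2 probe sets). The mean log2 ratio of the list was 0.42 to 0.81 over the A2B5+ arrays and -1.41 to -0.48 over the GalC+ arrays. Of 8 astrocyte markers, 0 passed in either direction (limma; 1 had an unadjusted p under 0.05), Aqp4 had the largest difference (-0.43), and the list mean was -0.21 to 0.26 in A2B5+ and -0.34 to 0.34 in GalC+. With the probe sets of each gene averaged, Fgfr3 (-0.30, adjusted p = 0.0480) and Aldh1l1 (-0.36, 0.0470), named after their values were seen, passed as lower in GalC+. Whether any marker was absent cannot be read from ratios, and the part of neurons in the fall of Nfia and Nfib was not tested.

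Zeb2, the Smad-interacting repressor needed for myelination, had 5 probe sets. Probe set 3 (1382252_at) read 0.876, 0.924, 0.827 and 0.911 in A2B5+ and 1.18, 1.30, 1.08 and 1.24 in GalC+, with no overlap and the smallest spread of the 5, at 0.44 ± 0.08 SE (limma, adjusted p = 0.00319). Probe set 2 (1390940_at) read 0.990, 0.834, 0.760 and 0.868 against 1.01, 1.24, 1.10 and 1.47, with a log2 fold change of 0.48 ± 0.13 SE (adjusted p = 0.0195). Its populations only just missed overlapping, and the call was lost without A2B5+ replicate 2 (0.0516) or GalC+ replicate 2 (0.0509). Probe sets 4 (1380699_at, 0.32 ± 0.13 SE, adjusted p = 0.0943) and 5 (1395130_at, 0.33 ± 0.12 SE, 0.0735) overlapped and did not pass; without A2B5+ replicate 2 the former had 0.41 (0.0324), and without GalC+ replicate 4 the latter had 0.44 (0.00609).

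Zeb2 probe set 1 (1393795_at) varied with the replicate number rather than with the population. It read 1.73, 1.14, 0.617 and 0.405 in A2B5+ replicates 1 to 4 and 1.89, 1.25, 0.864 and 0.397 in GalC+ replicates 1 to 4. Arrays with the same number lay close together although the highest and lowest arrays differed by 4.27-fold in A2B5+ and 4.77-fold in GalC+. The log2 fold change was 0.18 ± 0.52 SE (limma, adjusted p = 0.824), and with the replicate number as a block the SE was 0.10 (adjusted p = 0.221, 95% interval -0.05 to 0.41). The labels leave unsaid whether equal numbers mean the same litter. The block lowered the SE of this probe set 5.21-fold. With the cut set at that same value, 8 of 31042 probe sets, this one included, reached it. As the mean of its 5 probe sets, Zeb2 changed by 0.35 ± 0.13 SE and missed the threshold (adjusted p = 0.0542).

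**Figure D4:**
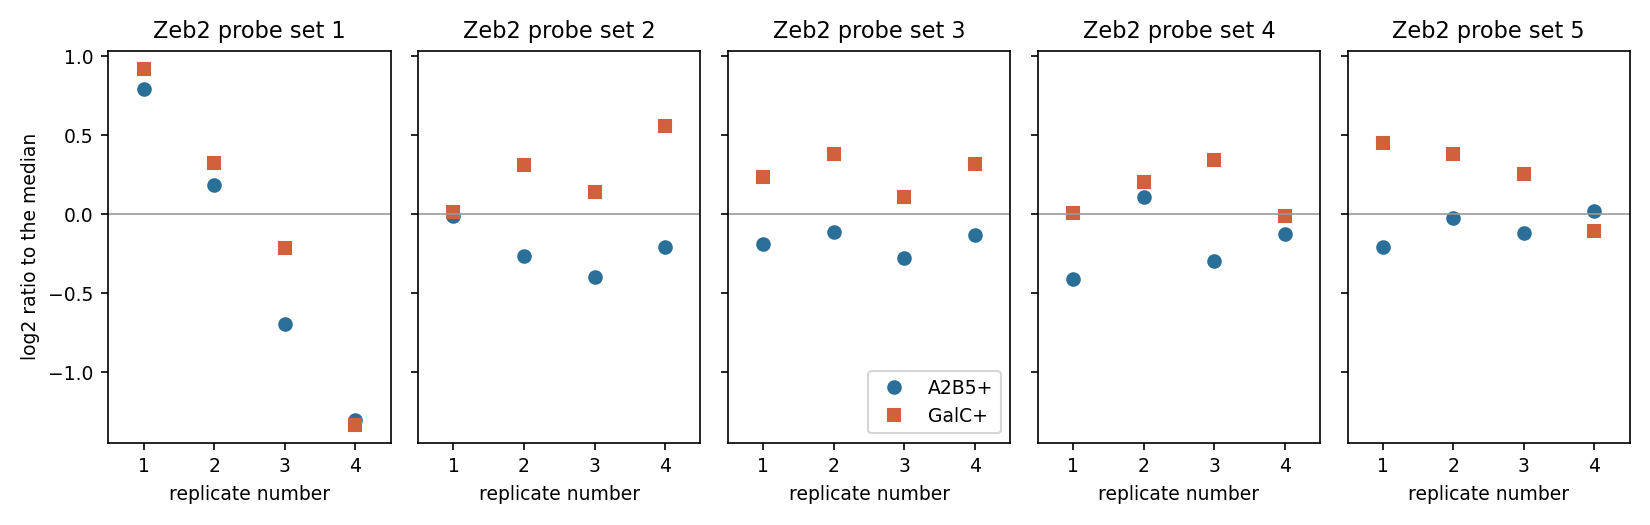
Log2 ratio (y axis) of the 5 Zeb2 probe sets by replicate number (x axis) in A2B5+ (circles) and GalC+ (squares) arrays, 1 point per array. In probe set 1 the equal-numbered arrays of both populations lie close together over a 4.27-fold to 4.77-fold range, and in probe set 3 the GalC+ arrays all lie above the A2B5+ arrays.

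Markers of macrophages, which also make Zeb2, and of mural cells were higher in GalC+ beside it. Of 18 macrophage markers 16 rose and 0 fell, where 18.2% of all genes rose. Cd163 led the rises (5.41), and the list mean was -1.53 to -0.69 in A2B5+ and 0.24 to 0.80 in GalC+ arrays. Of 12 mural and fibroblast markers 11 rose and 0 fell, beside the same 18.2% of all genes. Myh11 led the rises (3.13, and 1.65 averaged over its 2 probe sets), and the list mean was -1.15 to -0.54 against 0.34 to 0.98. Of 9 endothelial markers 0 passed, and 0 had an unadjusted p under 0.05 (limma); the largest difference was in Esam (0.50 ± 0.24 SE, adjusted p = 0.135), and the list mean was -0.92 to 0.22 in A2B5+ and -0.91 to 0.16 in GalC+. The part of these cells in the Zeb2 values was not tested.

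Yy1, a ubiquitous zinc finger factor, had no passing probe set among 4. Probe set 1 (1381886_at) ranged from 0.795 to 1.23 in A2B5+ and from 0.959 to 1.41 in GalC+ (log2 fold change 0.28 ± 0.16 SE, limma, adjusted p = 0.231, 95% interval -0.08 to 0.65). Probe set 2 (1375809_at) ranged from 0.891 to 1.03 and from 0.971 to 1.22 (0.24 ± 0.09 SE, 0.0708); it passed without A2B5+ replicate 3 (adjusted p = 0.0472) or GalC+ replicate 1 (0.0257). Probe set 3 (1379111_at) gave 0.08 ± 0.10 SE (95% interval -0.15 to 0.30) and probe set 4 (1377668_at) gave 0.00 ± 0.09 SE (-0.19 to 0.19). The populations overlapped in all 4.

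Relatives of these factors that share a family were measured in 10 cases, of which 1 rose and 4 fell, where 35.7% of all genes passed (18.2% rose and 17.5% fell) and the median log2 fold change was 0.04. Here and in all other lists, a gene was read from its probe set with the largest variance unless an average is named. Without A2B5+ replicate 3, 3 relatives rose. Nkx6-1, the closest relative of Nkx6-2, rose (0.90 ± 0.13 SE, limma, adjusted p = 6.67e-04). Bhlhe22, a relative of the Olig genes that is also made by neurons, fell by 1.98 on the log2 scale (adjusted p = 1.08e-04). Another nuclear factor I gene, Nfix, fell as well (-1.38 ± 0.13 SE, limma, adjusted p = 6.40e-05, and -0.72 averaged over its 2 probe sets). So did Zeb1 (-0.82) and Nkx2-1 (-0.62). Nfic (0.25, adjusted p = 0.105), Olig3 (0.16), Nkx2-3 (0.25), Nkx2-5 (0.02) and Myrfl (-0.02) did not pass; the members of this list outside the leading rises and falls were named after their values were seen, to complete its count.

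Myelin genes known to lie downstream of Myrf were higher in every measured case. Of 21 measured, 21 rose and 0 fell, where 18.2% of all genes rose. The median log2 fold change was 3.14 (2.52 when the probe sets of each gene were averaged). Mobp (5.26, and 4.08 averaged over its 3 probe sets) and Ermn (5.13, and 3.48 averaged over 3) led the rises. The smallest rise was 0.54. The list mean ran from -2.50 to -1.88 over A2B5+ arrays and from 0.78 to 1.43 over GalC+ arrays. Such genes also mark oligodendrocytes, the cells that the GalC+ label names. The list was chosen with earlier results of these data known. Their rise is therefore no independent check of the label and says nothing by itself about Myrf. Of 9 progenitor markers 3 fell, 0 rose and 6 did not pass, where 17.5% of all genes fell and 18.2% rose. The share that passed in either direction was near the 35.7% of all genes. Nxph1 led the falls (-2.35), and the list mean was 0.12 to 0.18 in A2B5+ and -0.48 to -0.21 in GalC+. Vcan, a proteoglycan gene named after its values were seen, went the other way: it had 0.67 (adjusted p = 0.0583) and passed as higher with its 5 probe sets averaged (0.41, 0.0445).

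Astrocyte genes that Nfi factors are known to switch on had 0 of 13 members past the threshold in either direction (limma; 0 had an unadjusted p under 0.05, the range was -0.43 to 0.24 and the median -0.14), Aqp4 showing the largest difference (-0.43 ± 0.33 SE, adjusted p = 0.343). Without GalC+ replicate 3, 3 of them were lower. Gfap, Slc1a3, Slc1a2, Aldoc, Aqp4 and Gja1 are also in the list of astrocyte markers above, so the counts of both lists are not independent. Nfia and Nfib fell in the same arrays.

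Of 26 other transcription factors of the lineage, 5 rose and 9 fell, where 18.2% of all genes rose and 17.5% fell. Their median was -0.27. Against a fold of 1.2, 3 rose and 6 fell, and with the spread of each gene alone 2 rose and 7 fell. Zfp488, a zinc finger factor that promotes differentiation, rose by 4.70-fold (2.23 ± 0.23 SE, limma, adjusted p = 1.04e-04), next to Myrf in size, and Sox10, the partner of Myrf at myelin genes, rose by 2.90-fold (1.54 ± 0.19 SE, 3.04e-04). Sox11, which holds cells undifferentiated and is also made by young neurons, fell by 2.21 on the log2 scale (5.28e-04), and Myt1, a zinc finger factor of progenitors and neurons, fell by 2.11 (9.05e-04; -1.61 averaged over its 2 probe sets).

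Among 29 cofactors and regulators of the members, 1 rose and 9 fell (median -0.18), where 18.2% of all genes rose and 17.5% fell. The share that passed in either direction was near the 35.7% of all genes. Against a fold of 1.2 (limma's treat), 0 rose and 2 fell, and with the spread of each gene alone 0 rose and 4 fell. Fbxw7, the ubiquitin ligase component that marks Myrf for breakdown, fell by 1.12 on the log2 scale (limma, adjusted p = 0.00281). Ezh2, the histone methyltransferase of the Polycomb complex, fell by 0.88 (0.0107; -0.51 averaged over its 3 probe sets). Rybp, a Polycomb protein that binds Yy1, was the riser at 0.48 ± 0.14 SE (0.0214), and the count of rises was 0 without A2B5+ replicate 1, A2B5+ replicate 4, GalC+ replicate 2 or GalC+ replicate 3. It was 2 without A2B5+ replicate 3 or GalC+ replicate 4, 3 without GalC+ replicate 1, and 2 with the replicate number as a block or with averaged probe sets. The count of falls was 5 without A2B5+ replicate 2 or GalC+ replicate 3.

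**Figure D5:**
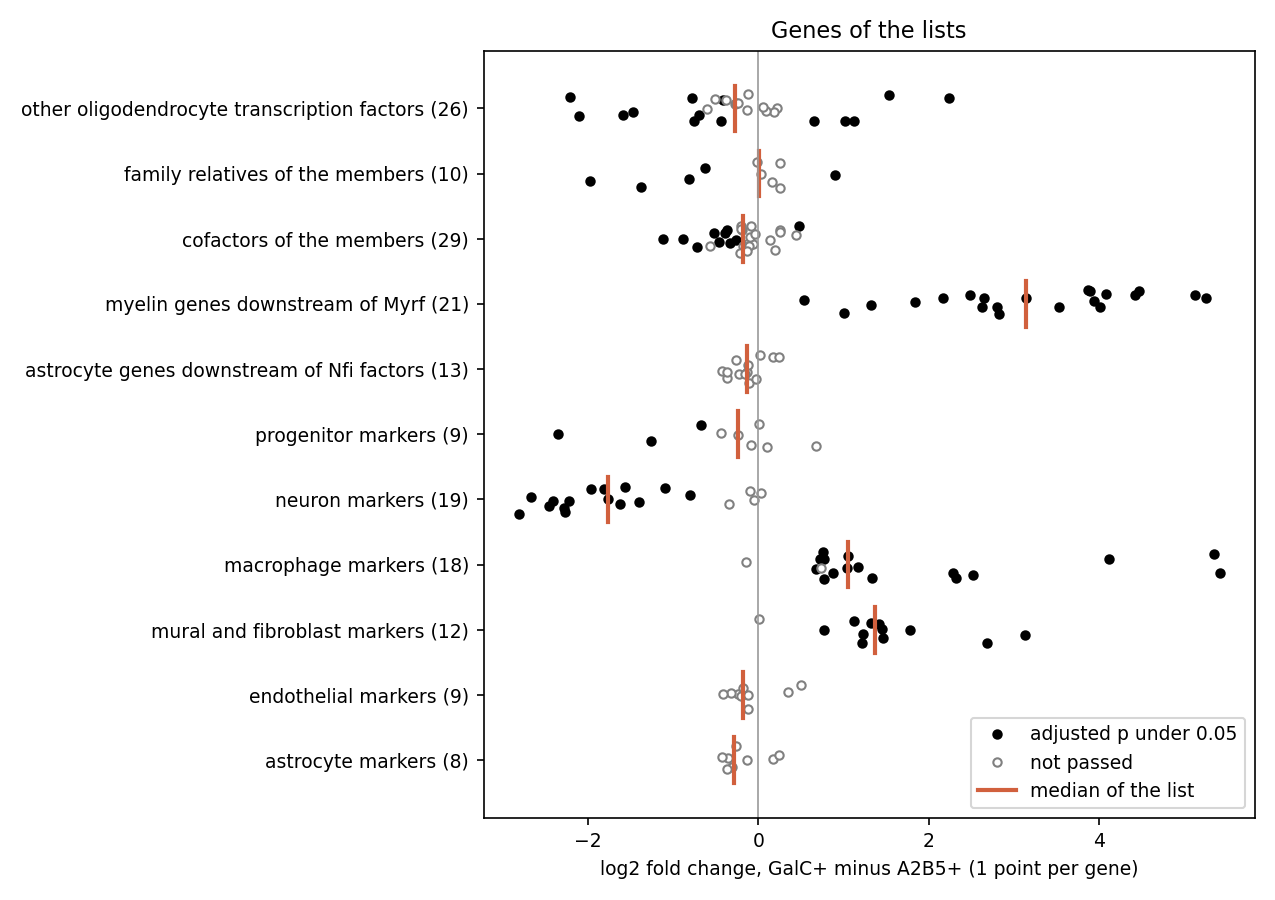
Log2 fold change of GalC+ over A2B5+ (x axis) for each measured gene of the lists (rows, number measured in parentheses); filled points passed an adjusted p of 0.05 (limma) and the vertical bar is the list's median. All 21 myelin genes lie above 0, 15 of 19 neuron markers are filled and below 0, and no astrocyte or endothelial marker is filled.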

How the data were processed

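Total RNA was labelled with biotin by Affymetrix's small sample procedure, per the labels' protocols, and the submitters' processing notes name RMA, with no version. What the authors deposited is a ratio on a linear scale, with each probe set divided by its median across the 8 arrays; this was read from the values, whose median is 1 for every probe set within rounding. They were log2 transformed with no pseudocount. After leaving out 57 control probe sets, 31042 were tested; 20826 had 1 gene symbol, and all columns belonged to a sample.

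The difference GalC+ minus A2B5+ was fitted by lmFit and eBayes (limma 3.58.1, R 4.3.3; two-sided) and adjusted by Benjamini-Hochberg over all probe sets, or over 14217 genes for lists, at a threshold of 0.05. Probe sets of a gene are numbered by falling variance. The fit was tested on simulated data. Exact tests used all 70 splits of 4 and 4 arrays. Within a population each replicate is a pooled litter; the labels do not say whether equal numbers in both populations mean the same litter. They give no scan date or batch. With 4 arrays per population, their number limits the precision.

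The members and lists were chosen with earlier results of these data known. Genes named are all members, the 2 largest rises and falls of each lineage list, the leading rise and fall of each marker list (the largest difference where none passed in a list), and the 3 nearest genes of members changed by at least 1 (log2). The main fit left the replicate number out. The criterion for pairing by number was every correlation of deviations over 0.1, which number 2 missed (0.089). Numbers 1, 3 and 4 had 0.40, 0.30 and 0.17, and 6 of 8 arrays correlated best with their own number, so a replicate structure is not excluded.
The alternatives tried were median centring or quantile normalization, the replicate number as a block, other variance priors, array weights, limma's treat, a stricter threshold, a filter on flat probe sets, averaged probe sets and leaving out each array.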

Additional observations from a re-analysis of the deposited data

Results flagged for a closer look

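Among 42 sets of 4 arrays (21 probe sets in 2 populations), 1 held an array far from the others, where chance gives about 1 in 20. It was Yy1 probe set 3 in A2B5+ replicate 3, with a ratio of 1.17 against 0.949, 0.953 and 0.971 in the other 3 A2B5+ arrays. Without that array the log2 fold change of the probe set was 0.15, and it did not pass.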

How the results depend on the processing

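The calls of Nkx6-2, Myrf and probe sets 1 and 2 of Nfia and Nfib held under every alternative run. The 4 higher probe sets became 7 with array weights and 2 against a fold of 1.2 (limma's treat), and lay at 3 to 5 with 1 array left out; the 5 lower became 4 to 5. Over the 5 lineage lists, 22 lower genes became 12 with treat, 15 with the spread of each gene alone and 17 to 22 with 1 array left out. The 28 higher genes became 24 with treat, 23 with the spread of each gene alone and 26 to 31 with 1 array left out. The number of passing pairs of probe sets went from 0 to 4 with the added limma fit over all pairs; with 1 array left out the count stayed at 0. With 1 array left out, Olig1 minus Olig2 lay at -0.48 to -0.35, Nkx6-2 minus Nkx2-2 at 3.12 to 3.41 and Nfia minus Nfib at 0.11 to 0.18. With the spread of each probe set alone, Olig1 (adjusted p = 0.0716) and Zeb2 probe set 2 (0.0851) did not pass.

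Signs turned for probe sets that never passed. With quantile normalization, Nfib probe set 3 (-0.0019), Zeb2 probe set 1 (-0.18) and Yy1 probe set 4 (-0.017) turned, the last also with median centring (-0.027). With 1 array left out, Nfia probe set 3 ran from -0.13 to 0.046, Zeb2 probe set 1 from -0.17 to 0.60 and Yy1 probe set 4 from -0.046 to 0.049. The causes were not tested.

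Equal replicate numbers had correlations of deviations of 0.40, 0.089, 0.30 and 0.17, and 6 of 8 arrays correlated best with their own number. As a replicate block in limma, the number changed no call among the 21 probe sets, with 4 higher and 5 lower, and over the array it moved 8313 calls to 9194. In the exact test with a replicate block, sign flips over 4 pairs cannot go below p = 0.125, so Olig1 minus Olig2 (-0.42) and Nkx6-2 minus Nkx2-2 (3.31) could not pass there.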

Other observations

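Reading a gene from its most variable probe set gave different pictures for members with several probe sets. For Zeb2 it selects the probe set that followed the replicate number (0.18, adjusted p over genes 0.810), while the other 4 probe sets lay between 0.32 and 0.48 and 2 of them passed. For Nfib it selects -1.33, against -0.77 averaged over its 3 probe sets, and for Nfia -0.97 against -0.63.

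The 8 probe sets whose SE fell at least as much with the replicate number as a block included Car4, Ramac and Pxmp4 beside Zeb2; the other 4 have no gene symbol here. The genes nearest to Zeb2 probe set 1 over the 8 arrays, looked up after its values were seen, were Anapc10 (root mean square distance 0.31), Hook3 (0.46) and Xrn1 (0.47).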
